A study of Homo sapiens with 8 samples.

Results

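The genes described here are 9 enzymes of serine, glycine and folate-bound carbon metabolism: PHGDH, PSAT1, PSPH, SHMT1, SHMT2, MTHFD1, MTHFD2, MTHFD1L and ALDH1L2. They were taken by name from the 58735 Ensembl gene IDs of the count files, named by GENCODE release 29. All 9 were found once, and each averaged 5 or more CPM, that is, read counts relative to the scaled library size, as did 10710 genes in all. The genes were chosen with their CPM in the 4 libraries in view, so their levels and ratios are given as a description, with no test.

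The cells were MOLM-13, a human acute myeloid leukemia line, in a study of acquired resistance to the alkylating agent busulfan. The labels describe 8 samples, and 4 RNA-seq libraries were analysed here: parental cells before any treatment (replicate 2) and vehicle cultures after 1, 3 and 5 treatment courses with DMSO at 1%, with 1 library each. Parental replicate 1 and the 3 libraries of busulfan-treated cells were not used here. The cultures grew in a glutamine-containing medium with 10 to 20% fetal bovine serum, and the labels do not say which culture had which serum level. The labels allow up to 20 passages for parental cells and give no passage number for the DMSO cultures, so passage and course cannot be told apart. Total gene counts lay between 44795976 and 56825811 per library. Multi-mapped reads, which enter no gene's count, made up 21.3% of reads in course 5 and 13.9% to 15.4% in the other libraries. All 8 myeloid leukemia markers were detected, with a sum of 3179 to 4401 CPM, while B cell markers summed to at most 2.72 CPM and erythroid markers to at most 0.717 CPM. Of the 6 T and NK cell markers 4 were under 1 CPM in all libraries. NCAM1, at 94.8 to 213 CPM, held nearly all of that list. CD3D, of the same list, had 243 counts in the parental library (4.11 CPM) and 24, 3 and 4 in courses 1, 3 and 5. PECAM1, at 128 to 184 CPM, held nearly all of the epithelial and stromal list, in which EPCAM and KRT5 were at or near 0. COL1A1, of that list, had 186 counts in the parental library (3.14 CPM) and 108, 10 and 5 in courses 1, 3 and 5.

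Cells make serine from the glycolytic intermediate 3-phosphoglycerate in a short pathway run by PHGDH, PSAT1 and PSPH. Serine hydroxymethyltransferases then split serine into glycine and a single carbon carried by tetrahydrofolate, and folate enzymes pass that carbon on to purines, thymidylate and methionine. The folate steps exist in the cytosol (SHMT1, MTHFD1) and in mitochondria (SHMT2, MTHFD2, MTHFD1L, ALDH1L2), with formate carrying carbon between them. The transcription factor ATF4, which is active when amino acids are short, is a known activator of several of these genes.

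RefSeq promoter windows (GRCh38.p14, from 250 bases before to 50 bases after a transcript start) were found for 6 of the 9 genes, and not for PSPH, SHMT2 and ALDH1L2. The windows were searched on both strands for TGATGNAA, letters that ATF4 with a C/EBP partner is known to bind, and, after the values had been seen, for CCAAT, the core of the NF-Y box. The motifs can share at most 1 base. TGATGNAA was present in windows of 4.46% of 27305 genes and CCAAT in those of 39.7%. Among the 6 genes TGATGNAA was found for MTHFD1L alone, at 1 position that 3 of its 4 windows share. CCAAT was found in at least 1 window of all 6. The sequences below are those of the gene with the widest range of levels (PSAT1) and of the gene with the highest mean CPM (MTHFD2), both chosen after their values were seen, and the MTHFD1L site. Each is given 5′ to 3′ on the plus strand and ends before the gene's first GENCODE exon base, except the MTHFD1L site. Capitals mark CCAAT in the first 2 and TGATGNAA in the last.
PSAT1, chr9:78296875-78297124: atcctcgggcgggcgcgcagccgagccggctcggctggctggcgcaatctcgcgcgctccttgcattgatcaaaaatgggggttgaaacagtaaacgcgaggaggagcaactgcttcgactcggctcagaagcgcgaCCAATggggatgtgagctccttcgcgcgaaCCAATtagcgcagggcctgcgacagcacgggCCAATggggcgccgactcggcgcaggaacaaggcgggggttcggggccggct
MTHFD2, chr2:74198365-74198561: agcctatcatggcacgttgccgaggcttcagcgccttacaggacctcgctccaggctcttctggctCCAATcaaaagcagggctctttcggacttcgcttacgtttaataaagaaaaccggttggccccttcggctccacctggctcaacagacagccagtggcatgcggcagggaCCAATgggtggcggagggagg
MTHFD1L, chr6:150866346-150866375: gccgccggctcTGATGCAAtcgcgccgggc
PSAT1 held 3 copies of CCAAT in the bases shown and MTHFD2 held 2, all on the plus strand. The MTHFD1L match began at -129, -90 and 24 relative to the annotated starts of those 3 windows. A match is a description of letters and shows no binding.

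In 7 of the 9 genes the libraries stood in the same order: DMSO course 1 lowest, then the parental library, course 3 and course 5 highest. These were PHGDH, PSAT1, PSPH, SHMT2, MTHFD2, MTHFD1L and ALDH1L2. Of all 10710 genes 15.2% had that order. The 2 exceptions were the cytosolic enzymes: SHMT1 was highest in the parental library, and MTHFD1 was lowest in course 1 but had similar levels elsewhere. Together the 9 genes took 1242 CPM before treatment, 547 CPM at course 1, 1878 CPM at course 3 and 2499 CPM at course 5.

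**Figure D1:**
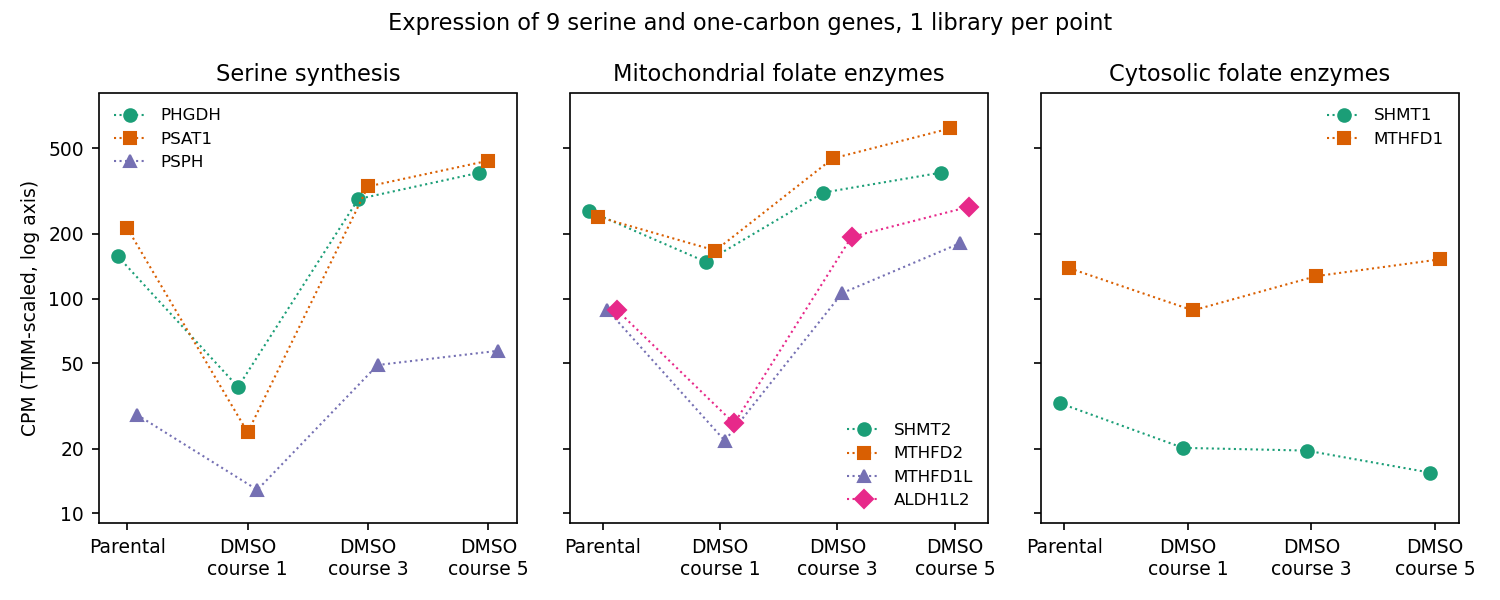
TMM-scaled CPM (log axis) of the 9 genes in the parental library and after 1, 3 and 5 DMSO courses, with 1 library per point, points shifted sideways for visibility and dotted lines only joining the points of a gene. The serine synthesis and mitochondrial genes have their lowest point in course 1 and their highest in course 5, with PSAT1 between 23.8 and 438 CPM, while SHMT1 is highest in the parental library.

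Among the serine synthesis genes, PSAT1 (ENSG00000135069), the transaminase of the second step, had the widest range of the 9. It had 12552 counts in the parental library, 1026 in course 1, 16696 in course 3 and 19956 in course 5, which is 212, 23.8, 332 and 438 CPM. The course 1 library stood far below the other 3. Against the parental library PSAT1 had a log2 ratio of -3.16 in course 1 (95% interval -3.25 to -3.06), of 0.65 in course 3 (0.61 to 0.68) and of 1.05 in course 5 (1.01 to 1.08). These intervals are exact binomial ones and cover counting error only, since no group has a second library here. Of the 10710 genes 16 had a lower ratio than PSAT1 in course 1, and between course 5 and course 1, an 18.4-fold difference, 6 had a higher one.

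PHGDH (ENSG00000092621), the dehydrogenase that commits 3-phosphoglycerate to serine, had 157 CPM before treatment, 38.7 CPM at course 1, 291 CPM at course 3 and 385 CPM at course 5. Its log2 ratios to the parental library were -2.02 (-2.10 to -1.95), 0.88 (0.85 to 0.92) and 1.29 (1.25 to 1.32). PSPH (ENSG00000146733), the phosphatase of the last step, was at 28.8, 12.9, 49.0 and 57.1 CPM in the same order of libraries. The log2 ratios of PSPH were -1.16, 0.77 and 0.99. PSPH thus kept the order of the other serine genes over a narrower range, 4.44-fold from lowest to highest, against 9.93-fold for PHGDH and 18.4-fold for PSAT1.

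The proportions of the serine synthesis transcripts also differed in course 1. Per kb of transcript, with the longest APPRIS principal transcript of GENCODE as the length, PSAT1 counts were 1.59 times those of PHGDH in the parental library, 0.726 times in course 1, 1.35 times in course 3 and 1.35 times in course 5. Against PSPH the ratio was 7.34 in the parental library, 1.84 in course 1, 6.75 in course 3 and 7.64 in course 5. PSAT1 was therefore low in course 1 also relative to the other enzymes of its own pathway, by a log2 difference of -1.13 (-1.25 to -1.01) relative to PHGDH and of -1.99 (-2.16 to -1.83) relative to PSPH. Such ratios within a library need no library scaling. Their level, but not their log2 difference between libraries, depends on the length used: over the union of annotated exons PSAT1 stood at 5.68 times PHGDH in the parental library and at 2.59 times in course 1, so its position below PHGDH in course 1 holds for the transcript length alone.

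Of the mitochondrial enzymes, 2 had wide ranges (ALDH1L2 and MTHFD1L) and 2 narrower ones (MTHFD2 and SHMT2). ALDH1L2 (ENSG00000136010), which oxidises formyltetrahydrofolate to carbon dioxide with production of NADPH, had 88.5 CPM before treatment, 26.2 CPM at course 1, 194 CPM at course 3 and 267 CPM at course 5. Its log2 ratios to the parental library were -1.76 (-1.85 to -1.66), 1.13 (1.08 to 1.18) and 1.59 (1.55 to 1.64). ALDH1L2 was the 1 gene of the 9 that was over 2-fold higher in course 3 as well as in course 5. MTHFD1L (ENSG00000120254), the synthetase that releases formate for export to the cytosol, was at 88.5, 21.8, 106 and 180.5 CPM in the same order. Its log2 ratios were -2.02 (-2.12 to -1.92), 0.26 (0.20 to 0.32) and 1.03 (0.98 to 1.08). The 2 genes had almost equal counts in the parental library, 5234 and 5235, and in course 3 they had 9721 for ALDH1L2 and 5322 for MTHFD1L. The step from course 3 to course 5 was the widest of the 9 in MTHFD1L, a log2 ratio of 0.77 (0.72 to 0.82), and of all genes 30 had a higher ratio there.

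MTHFD2 (ENSG00000065911), the dehydrogenase and cyclohydrolase of mitochondrial folate, had 240.0 CPM before treatment, 167 CPM at course 1, 449 CPM at course 3 and 619 CPM at course 5. Its log2 ratios were -0.52 (-0.56 to -0.48), 0.90 (0.87 to 0.93) and 1.37 (1.34 to 1.40). SHMT2 (ENSG00000182199), which splits serine in mitochondria, was at 256, 148, 311 and 385 CPM in that order, with log2 ratios of -0.79, 0.28 and 0.59. MTHFD2 was nearer to its parental level in course 1 than any other of the 9, but in course 5 the ratio of ALDH1L2 alone was higher. Course 1 and the later courses therefore ranked the genes differently, with PSAT1 farthest from the parental library in course 1 and ALDH1L2 in course 5.

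The cytosolic enzymes did not share this pattern. SHMT1 (ENSG00000176974), the cytosolic counterpart of SHMT2, had 1928 counts in the parental library, 869 in course 1, 984 in course 3 and 705 in course 5, which is 32.6, 20.2, 19.6 and 15.5 CPM. All 3 DMSO libraries were below the parental one, with log2 ratios of -0.69 (-0.81 to -0.58), -0.73 (-0.85 to -0.62) and -1.07 (-1.20 to -0.95). Courses 1 and 3 differed by -0.04 in SHMT1, within counting error (-0.18 to 0.09). MTHFD1 (ENSG00000100714), the trifunctional cytosolic enzyme, was at 138, 88.0, 127 and 152 CPM, with log2 ratios of -0.65, -0.12 and 0.14. Its range of 1.73-fold was the narrowest of the 9.

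**Figure D2:**
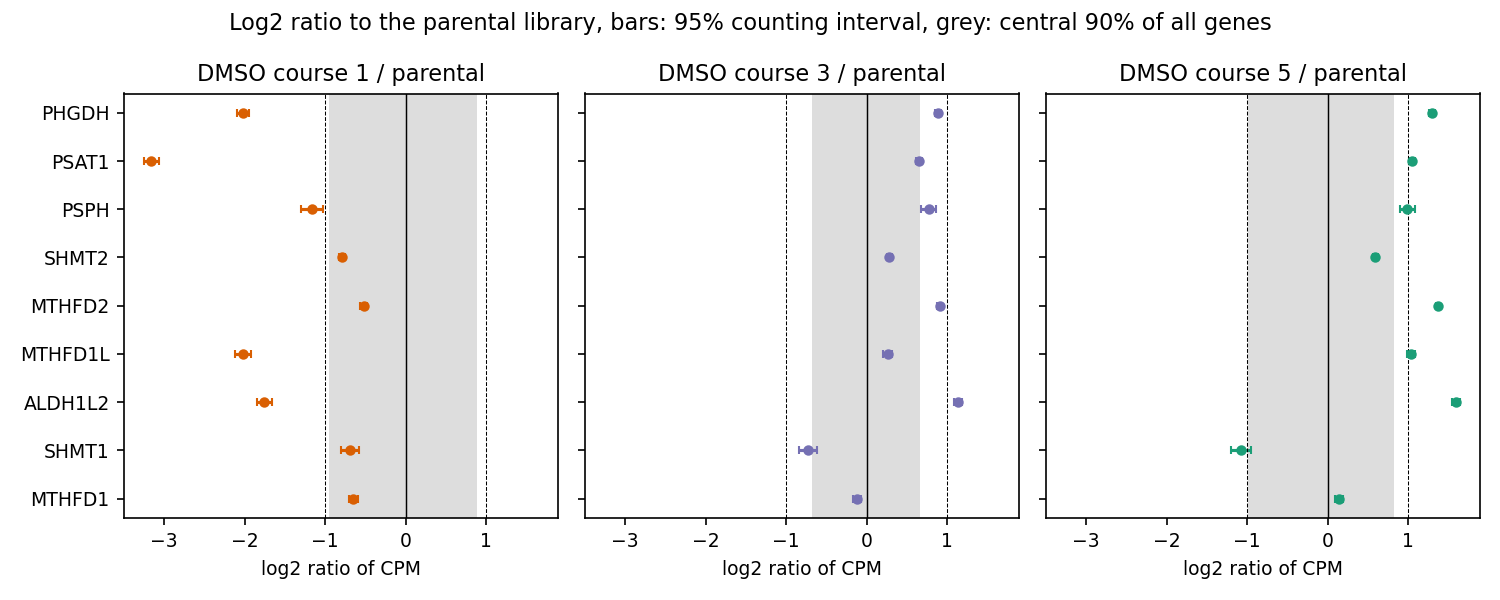
Log2 ratio of CPM to the parental library for each gene in DMSO courses 1, 3 and 5 (points, 1 library each), with 95% counting intervals as bars, the range from the 5th to the 95th percentile of all 10710 genes in grey and 2-fold as dashed lines. All 9 points lie left of 0 in course 1, and in course 5 all but SHMT1 lie right of it, with ALDH1L2 at 1.59. The 3 panels share the parental library.

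Genes were next counted at a ratio of 2-fold or more whose counting interval excluded equality. By that rule 5 of the 9 genes (PHGDH, PSAT1, PSPH, MTHFD1L and ALDH1L2) stood lower at course 1 than before treatment and 0 stood higher. Of all 10710 genes 4.19% were lower and 3.7% higher. By any size all 9 were lower and 0 higher, where 48.2% and 51.8% of all genes were. In course 3, 1 gene (ALDH1L2) was higher and 0 were lower, where 2.23% and 2.34% of all genes were. By any size 7 were higher and 2 (SHMT1 and MTHFD1) lower, beside 51.4% and 48.6%. In course 5, 5 genes (PHGDH, PSAT1, MTHFD2, MTHFD1L and ALDH1L2) were higher and 1 (SHMT1) was lower, where 2.96% and 4.92% of all genes were. By any size 8 were higher and SHMT1 alone was lower, beside 52.9% and 47.1%. PSPH, at 0.99, lay just under that limit, and MTHFD1L and PSAT1, at 1.03 and 1.05, just over it. With total nuclear gene counts as library sizes, which move every log2 ratio of course 5 to the parental library by -0.11, MTHFD1L stood at 0.91 and PSAT1 at 0.93, and 3 of the 9 genes in place of 5 were at least 2-fold higher. The mitochondrial genome's share of gene counts was 9.22% in course 5 and 13.6% to 15.1% in the other libraries. Any part of it in these ratios beyond that shift was not tested. The 9 genes had median log2 ratios of -1.16, 0.65 and 1.03 at courses 1, 3 and 5, beside 0.02, 0.01 and 0.03 for all genes. In 4 genes (PHGDH, PSAT1, MTHFD1L and ALDH1L2) course 1 was at least 2-fold below and course 5 at least 2-fold above the parental library, as in 0.271% of all genes. These comparisons share the parental library, and the 9 genes were chosen on these contrasts, so nothing is read from these shares.

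The DMSO libraries can also be set against each other without the parental library. From course 1 to course 3, and likewise from course 1 to course 5, 7 of the 9 genes were at least 2-fold higher and 0 lower, where 3.9% and 7.14% of all genes were higher and 4.82% and 9.08% lower. The exceptions were SHMT1 and MTHFD1 both times. By any size 8 of the 9 were higher and 1, SHMT1, lower in both, where 52.3% and 47.7% of all genes were higher and lower in course 3 and 53% and 47% in course 5. The median log2 ratio was 1.93 for course 3 and 2.15 for course 5, beside 0.03 and 0.05 for all genes. Between courses 5 and 3 no gene of the 9 was 2-fold apart, where 0.0747% of all genes were higher and 0.915% lower. There 8 of 9 genes were higher in course 5 by any size, with a median of 0.40, and SHMT1 was lower, against 54.2% and 45.8% of all genes and a median of 0.02. The later courses thus differed from course 1 by a log2 range of 1.07 to 3.80 (course 3) and 1.38 to 4.20 (course 5) in the 7 genes, and from each other by at most 0.77 in any of the 9.

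The balance between mitochondrial and cytosolic isozymes differed between libraries, and these ratios do not depend on library scaling. Per kb of transcript, SHMT2 counts were 7.63 times those of SHMT1 in the parental library (95% counting interval 7.27 to 8.00) and 7.13 times in course 1 (6.64 to 7.66). In course 3 the ratio was 15.4 (14.5 to 16.5) and in course 5 it was 24.2 (22.4 to 26.1). On the log2 scale the SHMT2 to SHMT1 ratio differed from the parental one by -0.10 in course 1, which is within counting error (-0.22 to 0.02), by 1.02 in course 3 (0.90 to 1.13) and by 1.66 in course 5 (1.54 to 1.79). Both SHMT genes were lower in course 1 by similar amounts, and in the later courses they parted, with SHMT2 above and SHMT1 below its parental level.

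The ratio of MTHFD2 to MTHFD1 had a similar pattern, at 1.22 before treatment, 1.34 at course 1, 2.48 at course 3 and 2.86 at course 5. The ratio of MTHFD1L to MTHFD1 did not: it was 0.557 in the parental library, 0.215 in course 1, 0.725 in course 3 and 1.03 in course 5. Over the exon union the MTHFD1L to MTHFD1 ratio was 1.20, 0.462, 1.56 and 2.21, and that of MTHFD2 to MTHFD1 was 3.34, 3.66, 6.80 and 7.83, so the levels depend on the length used and the differences between libraries do not. Over the exon union the SHMT2 to SHMT1 ratio was 11.8 in the parental library, 23.9 in course 3 and 37.5 in course 5. Course 1 was thus within counting error of the parental library in the isozyme balance at the SHMT step. At the MTHFD2 step it was slightly above the parental library, by a log2 difference of 0.13 (0.06 to 0.20). At the formate-releasing step it was below, by -1.37 (-1.49 to -1.26).

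**Figure D3:**
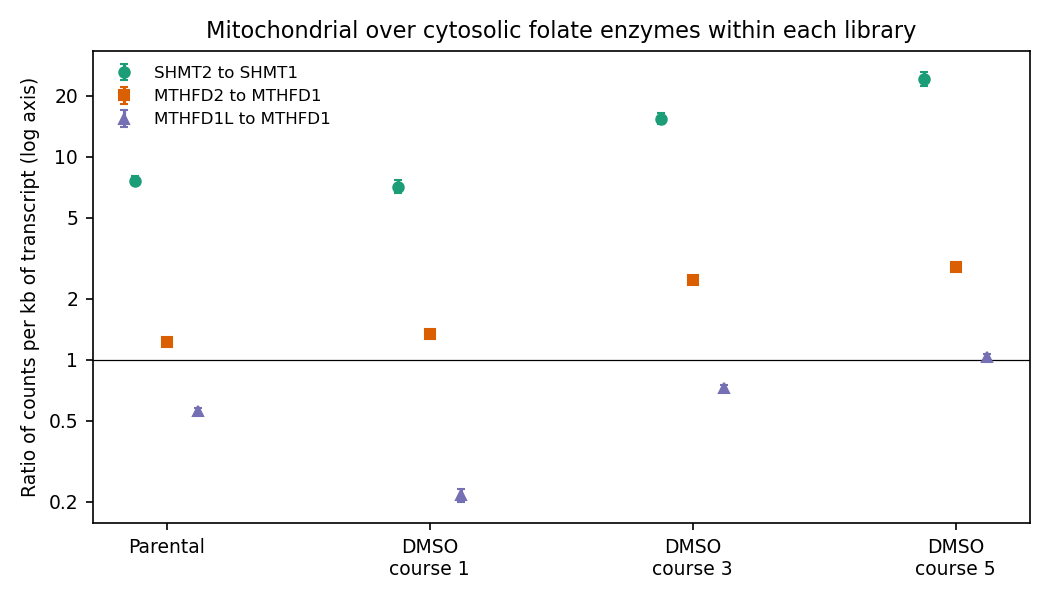
Ratio of counts per kb of transcript (log axis) of mitochondrial to cytosolic enzymes within each library, with 95% counting intervals as bars. SHMT2 to SHMT1 stands near 7 in the parental and course 1 libraries and at 24.2 in course 5, and MTHFD1L to MTHFD1 has its lowest point, 0.215, in course 1.

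Levels between genes were compared per kb of transcript. In the parental library SHMT2 (101 CPM per kb) and PSAT1 (97.0 CPM per kb) led, followed by PHGDH (60.9), MTHFD2 (53.9), MTHFD1 (44.1) and MTHFD1L (24.6 CPM per kb), and SHMT1 (13.2), PSPH (13.2) and ALDH1L2 (11.7 CPM per kb) were lowest. In course 1 SHMT2 led with 58.3 CPM per kb, PSAT1 stood between PHGDH and SHMT1 with 10.9 CPM per kb and ALDH1L2 was last with 3.47 CPM per kb. In courses 3 and 5 PSAT1 led with 152 and 200.2 CPM per kb, and SHMT1 was last with 7.95 and 6.28 CPM per kb. The order depends on the length used: over the union of all annotated exons, which for PHGDH is 9217 bases against 2585 for the transcript, PSAT1 led in the parental library and MTHFD2 in course 1, and SHMT1 was last in all 4 libraries.

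Near-identical copies and overlapping genes bear on some of the counts. GENCODE names 14 pseudogenes after the 9 genes, 4 of them for PSAT1. PSAT1P3 had 214 counts before treatment, 14 at course 1, 275 at course 3 and 331 at course 5, which was 1.36% to 1.70% of the PSAT1 counts of the same library. PSPHP1, a copy of PSPH, had 450, 439, 450 and 383 counts, between 14.7% and 79.2% of those of PSPH, and did not follow PSPH. MTHFD1P1 had 2.13% to 3.22% of the counts of MTHFD1, and each of the 7 MTHFD2 pseudogenes had at most 0.716% of those of MTHFD2. SHMT1P1 had at most 0.610% of those of SHMT1. Reads that match a gene and its copy equally are in no gene's count, so PSAT1, PSPH, MTHFD1, MTHFD2 and SHMT1 are uncertain in level. Exons of SHMT1, SHMT2, MTHFD1, MTHFD2 and ALDH1L2 overlap those of genes on the opposite strand, which the reverse-stranded counting keeps apart. MIR6778 overlaps SHMT1 on the same strand and had 0 counts in all 4 libraries. For PHGDH, PSAT1, PSPH and MTHFD1L no other gene with overlapping exons was annotated.

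Genes with the most similar pattern were found by the root mean square difference of centred log2 CPM over the 4 libraries, among the 9761 other protein-coding genes that averaged 5 CPM or more. Nearest to PSAT1 outside the 9 were G0S2 (0.26 log2 units), FLRT1 (0.31), STC2 (0.34), ADM2 (0.42), WARS (0.50) and MYO6 (0.53). STC2 encodes a secreted stanniocalcin and WARS the cytosolic tryptophanyl-tRNA synthetase. STC2 had 27.5 CPM before treatment, 5.48 CPM at course 1, 70.2 CPM at course 3 and 97.9 CPM at course 5. Among the 9, PHGDH ranked 5 of all genes in nearness to PSAT1, ALDH1L2 ranked 7, MTHFD1L ranked 11 and PSPH ranked 45, while SHMT1 ranked 6409. Nearest to MTHFD2 were TUSC1 (0.04), SEPT11 (0.04), GPR63 (0.06), HLCS (0.08), GPR27 (0.08) and SARS (0.09 log2 units). SARS, the cytosolic seryl-tRNA synthetase gene, was at 77.2, 51.8, 152 and 226 CPM. PSPH ranked 92 and SHMT2 ranked 172 for MTHFD2, and PSAT1, with its wider range, ranked 8619. With 4 libraries these ranks are a description, and they changed when course 1 was left out. Without it, 0 of the 6 genes nearest to PSAT1 and 2 of the 6 nearest to MTHFD2 were still among the nearest 6.

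The rest of the pathway was described from lists of related genes. CPM values below are in the order parental, DMSO course 1, DMSO course 3 and DMSO course 5. Between courses 5 and 1, 7.14% of all genes were at least 2-fold higher and 9.08% lower, with a median of 0.05. In glycine cleavage and mitochondrial folate, 5 of 9 genes had a mean of at least 5 CPM. Between courses 5 and 1, 2 of these were at least 2-fold higher and 1 lower, with a median of 0.65. The glycine cleavage genes GLDC, AMT and GCSH, with means of 0.09, 2.07 and 1.33 CPM, were outside this count and median. MTHFD2L, a paralog of MTHFD2, was at 8.69, 4.67, 10.6 and 10.1 CPM. SLC25A32, the mitochondrial folate carrier, was at 7.83, 4.53, 9.30 and 13.8 CPM. SARDH, the mitochondrial sarcosine dehydrogenase, went the other way, at 9.28, 9.22, 2.13 and 1.32 CPM. Its mean of 5.49 CPM passed the limit of 5 CPM through the parental and course 1 libraries. DLD, a subunit shared with other dehydrogenase complexes, was at 86.2, 56.0, 80.4 and 87.9 CPM.

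Genes listed under cytosolic folate and thymidylate showed smaller differences, with a median of 0.19 between courses 5 and 1. Of 4 measured genes of 7, 1 was at least 2-fold higher in course 5 than in course 1, beside 7.14% of all genes. That gene, DHFR2, was at 11.6, 7.47, 12.8 and 16.1 CPM and encodes a mitochondrial enzyme, not a cytosolic one. TYMS, the thymidylate synthase, was at 128, 78.3, 81.8 and 87.9 CPM, highest in the parental library. Of the folate uptake and retention genes 3 of 7 were measured, and 0 of these 3 were 2-fold apart between any 2 libraries. The folate transporter gene SLC46A1, with a mean of 2.63 CPM, was outside this count. Its log2 ratios to the parental library were -2.55, -4.62 and -4.17 in courses 1, 3 and 5. The reduced folate carrier gene SLC19A1 was at 76.5, 41.1, 59.4 and 57.5 CPM, FPGS, which adds glutamate tails to folate, at 68.9, 46.3, 48.6 and 43.4 CPM, and GGH, which removes them, at 72.4, 56.3, 57.2 and 51.5 CPM. The formyl-folate users of purine synthesis, GART (111, 61.0, 123 and 145 CPM) and ATIC (100.2, 67.1, 122 and 164 CPM), had the same order of libraries as the 7 enzymes, with log2 ratios between courses 5 and 1 of 1.25 and 1.29.

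Of the methionine cycle and transsulfuration genes 9 of 13 were measured. CBS and CTH, which carry serine and homocysteine into cysteine, were the 2 that were at least 2-fold higher in course 5 than in course 1, beside 7.14% of all genes. CTH was at 9.99, 5.25, 28.5 and 38.4 CPM and CBS at 4.94, 2.09, 10.3 and 11.6 CPM. CBS, which has a near-identical annotated copy and is therefore uncertain in level, was at least 2-fold lower at course 1 than before treatment, and both were 2-fold higher in courses 3 and 5. MAT2A, which makes S-adenosylmethionine, was at 437, 199.9, 388 and 378 CPM, below the parental level in all 3 DMSO libraries and at least 2-fold so at course 1. AHCY, which hydrolyses S-adenosylhomocysteine, was at 198, 151, 227 and 297 CPM. The list had a median of 0.82 between courses 5 and 1, beside 0.05 for all genes.

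Carriers of serine and glycine showed large differences in some members. Of 7 measured genes of 9, 4 were at least 2-fold higher in course 5 than in course 1 and 0 were lower, beside 7.14% and 9.08% of all genes. The 4 were SLC6A9, SLC1A5, SLC1A4 and SLC38A2, the last at 251, 186, 344 and 379 CPM. The glycine transporter gene SLC6A9 had 231 counts in the parental library, 1 in course 1, 314 in course 3 and 461 in course 5. Its mean of 5.07 CPM passed the limit of 5 CPM through courses 3 and 5, at 6.25 and 10.1 CPM. The place of SLC6A9 among the 4 is therefore not independent of that limit. SLC1A5, a carrier of glutamine and small neutral amino acids, was at 499, 245, 814 and 907 CPM, and the serine carrier gene SLC1A4 at 116, 60.2, 164 and 191 CPM. SFXN2, of the sideroflexins of the mitochondrial membrane, was at 12.1, 3.81, 8.26 and 6.85 CPM and so was highest in the parental library. It was not among the 4, with a log2 ratio of 0.85 between courses 5 and 1. The sideroflexin genes SFXN1 and SFXN3 stood the other way, highest in course 1 at 105 and 299 CPM. Their log2 ratios between courses 5 and 1 were -0.56 and -0.81. Among users of serine and glycine, 5 of 12 genes were measured and 2 were at least 2-fold higher in course 5 than in course 1, beside 7.14% of all genes. These were PTDSS1, which exchanges serine into phospholipid, at 346, 217, 386 and 450 CPM, and GATM, of creatine synthesis, at 3.87, 8.73, 19.3 and 27.2 CPM. ALAS1, of heme synthesis, was at 104.5, 131, 143 and 132 CPM, and SPTLC2, of sphingolipid synthesis, at 53.9, 46.1, 41.8 and 48.8 CPM.

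Many genes of the ATF4 pathway were also lowest in course 1 and highest in course 5. ATF4 mRNA itself was at 458, 404, 530 and 580 CPM, with log2 ratios to the parental library of -0.18, 0.21 and 0.34. All 15 genes of the list were measured. At course 1, 8 were at least 2-fold below the parental level and 2 above it, beside 4.19% and 3.7% of all genes. At course 5, 10 were above and 0 below, beside 2.96% and 4.92%. TRIB3, a pseudokinase induced by ATF4, was at 60.0, 28.7, 150 and 294 CPM, and the asparagine synthetase gene ASNS at 9.25, 3.02, 22.9 and 25.2 CPM. CHAC1, a glutathione-degrading enzyme, had 928, 13, 2504 and 2352 counts, and ATF5 was at 49.3, 27.9, 88.8 and 217 CPM. The list's median log2 ratio between courses 5 and 1 was 2.13, beside 2.15 for the 9 enzymes.

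The glycolytic genes around 3-phosphoglycerate, the substrate of PHGDH, stood the other way. All 6 were lower in courses 3 and 5 than in course 1, beside 47.7% and 47% of all genes. In each, 4 of them were at least 2-fold lower, beside 4.82% and 9.08%, and the medians were -1.10 and -1.33. PGK1, which makes 3-phosphoglycerate, was at 614, 816, 352 and 276 CPM. PKM was at 860, 997, 451 and 357 CPM, ENO1 at 2594, 3169, 1518 and 1396 CPM and ENO2 at 90.6, 355, 63.1 and 17.1 CPM. Whether the glycolytic or the ATF4 pathway genes had a part in the levels of the 9 enzymes was not tested.

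**Figure D4:**
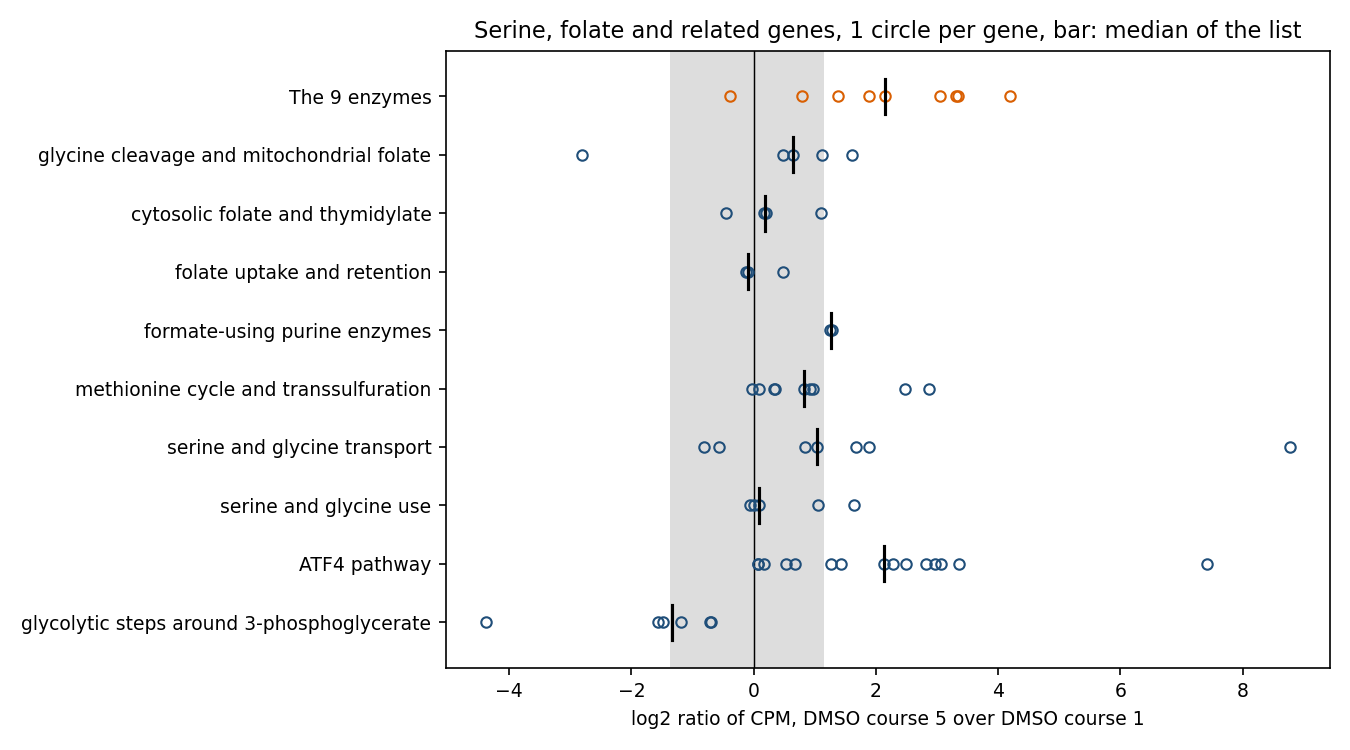
Log2 ratio of CPM between DMSO course 5 and DMSO course 1 for each gene averaging 5 CPM or more, by list (circles), with the median of each list as a bar and the range from the 5th to the 95th percentile of all 10710 genes in grey. The medians are 2.15 for the 9 enzymes, 2.13 for the ATF4 pathway and -1.33 for the glycolytic steps.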

How the data were processed

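Bulk RNA-seq of MOLM-13 cells was deposited as raw read counts per Ensembl gene ID. The submitters' processing notes list HTSeq 0.6p1, TopHat2 2.0.11, FastQC 0.11.5 and, as genome, hg19. All 58735 IDs matched GENCODE release 29, annotated on GRCh38, so which build was used is not settled, and coordinates are given only for the RefSeq promoter sequences (GRCh38.p14). The names of the deposited files state reverse-stranded counting. The 5 HTSeq summary rows (24.6% to 29.8% of reads) were left out of library sizes.

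CPM was computed from the deposited counts in R 4.3.3 with edgeR 4.0.16, using TMM factors over the 18612 genes that filterByExpr kept (minimum count 10, minimum total 15). Ratios, exact binomial 95% intervals and fold calls (at least 2-fold, mean of at least 5 CPM) were computed in Python 3.11.15 with scipy 1.17.1 and tested on simulated data. Intervals of differences between 2-gene ratios used a normal approximation. A count of 0 was set to 3 counts per library. For pattern likeness 2 counts were added to each library. Each group had 1 library, so no test was made. Alternatives were total or nuclear gene counts and DESeq2 1.42.0 size factors as scaling, a mean of at least 1 CPM, and a ratio of at least 1.5-fold. The exon-union length, and nuclear scaling for the numbers of genes past 2-fold, were added after seeing the data.

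The 9 genes and all lists were chosen with earlier results of these data known. Named genes were the 9 enzymes, up to 4 genes per list with the widest range of log2 CPM and a mean of at least 5 CPM, the 6 nearest protein-coding genes to PSAT1 and to MTHFD2, and pseudogenes by name. ATF4, NCAM1, PECAM1, EPCAM, KRT5, COL1A1, CD3D, AMT, GCSH, SLC38A2, SFXN1 and SFXN3 are named besides these, chosen after their values were seen. So are the genes of the closing section. Some genes of the lists are not reported here.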

Additional observations from a re-analysis of the deposited data

Results flagged for a closer look

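In 4 of the 9 genes the parental library lay between course 1 and course 5, at least 2-fold from each, as it did in 0.271% of all 10710 genes. The log2 ratios to the parental library were -2.02 in course 1 and 1.29 in course 5 for PHGDH, -3.16 and 1.05 for PSAT1, -2.02 and 1.03 for MTHFD1L, and -1.76 and 1.59 for ALDH1L2. These opposite directions were not tested, with 1 library at each course, and both ratios of a gene share the parental library. The 9 genes were chosen with these values in view, so nothing is read from the share.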

How the results depend on the processing

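With a limit of 1.5-fold in place of 2-fold, 8 of the 9 genes stood below the parental level at course 1 (5 at 2-fold), 5 stood above it (1 at 2-fold) and 1, SHMT1, below it (0 at 2-fold) at course 3, and 1, MTHFD1L, was higher in course 5 than in course 3 (0 at 2-fold). Of all genes 14.1%, 6.49%, 6.57% and 0.784% passed 1.5-fold in these 4 directions. With nuclear gene counts as library sizes, tried on these counts after seeing the data, 3 genes (PHGDH, MTHFD2 and ALDH1L2) in place of 5 were at least 2-fold higher in course 5 than before treatment. The other counts at 1.5-fold or with nuclear gene counts, and every count under total gene counts, DESeq2 size factors or a mean of at least 1 CPM, stayed within 1.5 times of those given. The number higher at course 5 was 4 with total gene counts, which left MTHFD1L at 0.98, and 6 with DESeq2 size factors, which added PSPH. No gene past 2-fold changed direction under another scaling. The log2 ratio of SHMT1 between courses 3 and 1 changed sign, to 0.01, with nuclear gene counts. Total gene counts moved ratios of course 1 to the parental library by -0.11. Without course 1, 0 of the 6 genes nearest to PSAT1 and 2 of the 6 nearest to MTHFD2 were found again. Whether this came from the smaller number of libraries or from the course 1 values was not tested. No paired analysis was possible because each group had 1 library. Depth was at least 554 counts for each of the 9 genes in each library, so counting error was small, and the spread between cultures of 1 kind was not measured.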

Other observations

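Several genes of the wider lists had patterns of their own, and were picked after their values were seen. SLC46A1, the proton-coupled folate transporter, had 492 counts in the parental library (8.32 CPM) and 61, 17 and 21 in courses 1, 3 and 5 (1.42, 0.339 and 0.461 CPM). Its log2 ratios to the parental library were -2.55, -4.62 and -4.17, so it was low in all 3 DMSO libraries, unlike the 7 enzymes. The serine dehydratase gene SDS had 78, 37, 5 and 1 counts in the same order of libraries. GLDC, the decarboxylase of the glycine cleavage system, had 7, 0, 11 and 1 counts, near the limit of detection in each library.

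Some genes of the ATF4 list stood at higher levels in course 1 than in the parental library, unlike PSAT1 and CHAC1. NUPR1 had 61, 319, 207 and 353 counts in the order parental, course 1, course 3 and course 5, with log2 ratios of 2.84, 2.00 and 2.91. Its mean of 5.08 CPM passed the limit of 5 CPM through courses 1 and 5, at 7.41 and 7.75 CPM. CEBPB was at 12.0, 34.2, 45.9 and 54.7 CPM. DDIT3, which encodes CHOP, was at 21.1, 33.6, 31.5 and 35.2 CPM, and DDIT4 at 88.8, 172, 151 and 193 CPM.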
